A study of Mus musculus with 27 samples.

Results

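The 8 genes described here are those for zinc transporters, metallothioneins and the metal-sensing transcription factor of the liver: the importers *Slc39a4*, *Slc39a5* and *Slc39a14*, the exporters *Slc30a1* and *Slc30a10*, the metallothioneins *Mt1* and *Mt2*, and *Mtf1*. They were taken by symbol from a table of liver transcript counts that names 23191 gene symbols, and all 8 were present. The genes were chosen from the zinc-handling families with earlier results of these same livers in view, and the record of the choice does not say which values were used. Their levels and differences over the 4 groups are therefore given as a description, and the adjusted p-values beside them, which come from fits over all genes, are not independent evidence. RNA-Seq was done on livers of 27 male C57BL/6J mice. HGFAC-KO mice lack the hepatocyte growth factor activator in the whole body, through a CRISPR/Cas9 deletion that runs from the middle of exon 1 through exon 2 of *Hgfac*, and controls were their littermates. The diets, chow or HF/HS (rich in fat and sucrose), began at 8 weeks of age and lasted 4 weeks, and each diet had 7 controls, with 6 knockouts on chow and 7 on HF/HS. The zinc content of the diets is not given in the sources used here.

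Zinc enters the cytosol through ZIP proteins, encoded by the *Slc39* genes, and leaves it, to the outside or into organelles, through ZnT proteins, encoded by the *Slc30* genes. Metallothioneins are small cysteine-rich proteins that bind zinc and copper, and the zinc-sensing factor MTF1 raises their transcription through short metal response elements near the start of the gene. In liver, metallothionein transcription is also known to respond to glucocorticoids and to inflammatory cytokines, and the importer ZIP14, encoded by *Slc39a14*, is known as part of the acute-phase response.

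The windows around the annotated starts of the metallothionein genes and of *Slc30a1*, a textbook MTF1 target, are shown because they hold the letters through which MTF1 is known to act. Each runs 5′ to 3′ on the gene's strand over 300 bases, 250 before and 50 from the start, in RefSeq's GRCm38.p6 annotation, and capitals mark every match to the core of the metal response element, TGCACNC or TGCGCNC, on either strand. The windows are chr8:94172368-94172667 for *Mt2*, chr8:94178839-94179138 for *Mt1* and chr1:191906531-191906830 for *Slc30a1*, all on the plus strand. Gene positions given below are from GENCODE M21, whose starts can differ from the RefSeq starts used here. The GENCODE start of *Mt2*, 94172664, lies near the end of its window.

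Mt2: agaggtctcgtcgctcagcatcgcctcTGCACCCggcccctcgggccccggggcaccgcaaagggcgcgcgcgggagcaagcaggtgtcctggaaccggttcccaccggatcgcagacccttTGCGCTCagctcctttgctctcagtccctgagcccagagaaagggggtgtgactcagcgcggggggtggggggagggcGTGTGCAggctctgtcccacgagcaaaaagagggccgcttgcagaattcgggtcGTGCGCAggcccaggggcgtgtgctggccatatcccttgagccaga

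Mt1: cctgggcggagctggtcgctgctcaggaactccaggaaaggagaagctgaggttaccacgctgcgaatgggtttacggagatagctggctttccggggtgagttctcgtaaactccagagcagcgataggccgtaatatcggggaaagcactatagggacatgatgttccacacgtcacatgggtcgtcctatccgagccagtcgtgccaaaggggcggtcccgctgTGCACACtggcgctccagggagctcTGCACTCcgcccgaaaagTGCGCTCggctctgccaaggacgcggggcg

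Slc30a1: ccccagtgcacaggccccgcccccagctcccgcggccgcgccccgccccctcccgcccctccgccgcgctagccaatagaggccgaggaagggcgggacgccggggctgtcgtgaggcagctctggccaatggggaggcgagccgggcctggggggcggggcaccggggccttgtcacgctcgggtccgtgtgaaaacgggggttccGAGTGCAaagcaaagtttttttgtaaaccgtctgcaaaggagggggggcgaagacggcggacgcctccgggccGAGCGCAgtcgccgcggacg

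The *Mt2* window held 4 matches, a number reached by 0.517% of 32851 windows of the same length. The *Mt1* window held 3 matches, as did that of *Slc30a10*, in which 2 of the matches overlapped, and 1.97% of windows held at least 3. The *Slc30a1* window held 2, and 7.11% of windows held at least 2. Of the 2 windows of *Slc39a5*, 1 held a single match and the other held none, and the *Mtf1* window held none, where 25.7% of windows held at least 1. The set of windows used here held 6 of the 8 genes and none for *Slc39a4* and *Slc39a14*, a gap of that set and not of the RefSeq annotation. The antioxidant response element TGACNNNGC was matched once in each of the *Mt2* and *Slc30a1* windows and at 2 places in 1 window of *Slc39a5*, with 12.4% of all windows holding at least 1. The STAT-type element TTCNNNGAA was found in none of these members' windows and in 8.3% of all windows. A match is a run of letters and not a shown binding site.

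The libraries held 36056177 to 57298657 counts, with a median of 47239271, and the least abundant of the 8 genes, *Slc39a5*, still had 25 or more counts in every liver, while *Mt2* had 16 in its lowest. *Hgfac*, which checks the labels, was at 201 ± 12.8 CPM (library-scaled read count, mean ± SD, n = 7) in controls on chow and at 75.2 ± 8.27 (n = 6) in HGFAC-KO mice on chow. On HF/HS it was at 271 ± 15.5 (n = 7) and 91.8 ± 7.94 (n = 7), and the genotypes did not overlap on either diet. The counts are per gene and include exons outside the deletion. The 4 hepatocyte markers found in the table (*Alb*, *Apoa1*, *Ttr* and *Serpina1c*) summed to 68520 CPM or more in every liver, and 8 markers of pancreatic acinar cells summed to at most 1.06 CPM. The control on HF/HS numbered 7 stood apart from the other 6 in its group: all 18 genes of an acute-phase list and all 6 Kupffer cell and leukocyte markers were higher in it than in any other control on HF/HS, but none of the 4 hepatocyte markers was. The share over all genes was not computed. The levels and differences that rest on this mouse are given with and without it below. In whole liver, fewer cells of a type and less RNA per cell cannot be told apart.

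Per kilobase of exon, the mean level over the 27 livers was 27.7 CPM per kb for *Mt1*, 25.4 for *Slc39a14*, 24.1 for *Mt2* and 20.7 for *Slc39a4*. *Slc30a10* was at 13.4, *Slc30a1* at 12.1, *Mtf1* at 4.48 and *Slc39a5* at 0.446 CPM per kb. The order at the top rested on control 7 on HF/HS. Over the other 26 livers *Slc39a14* led at 24.0 CPM per kb, followed by *Mt1* at 22.3, *Slc39a4* at 20.9, *Slc30a10* at 13.4 and *Mt2* at 13.1. Between the lowest and the highest liver, *Mt2* differed 563-fold, *Mt1* 46.8-fold and *Slc39a14* 3.81-fold with control 7, and 100.1-fold, 15.1-fold and 2.26-fold without it. The ratio was 3.52 for *Slc39a4*, 3.45 for *Slc39a5*, 1.49 for *Slc30a1*, 1.47 for *Slc30a10* and 1.34 for *Mtf1* (1.28 without control 7).

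**Figure D1:**
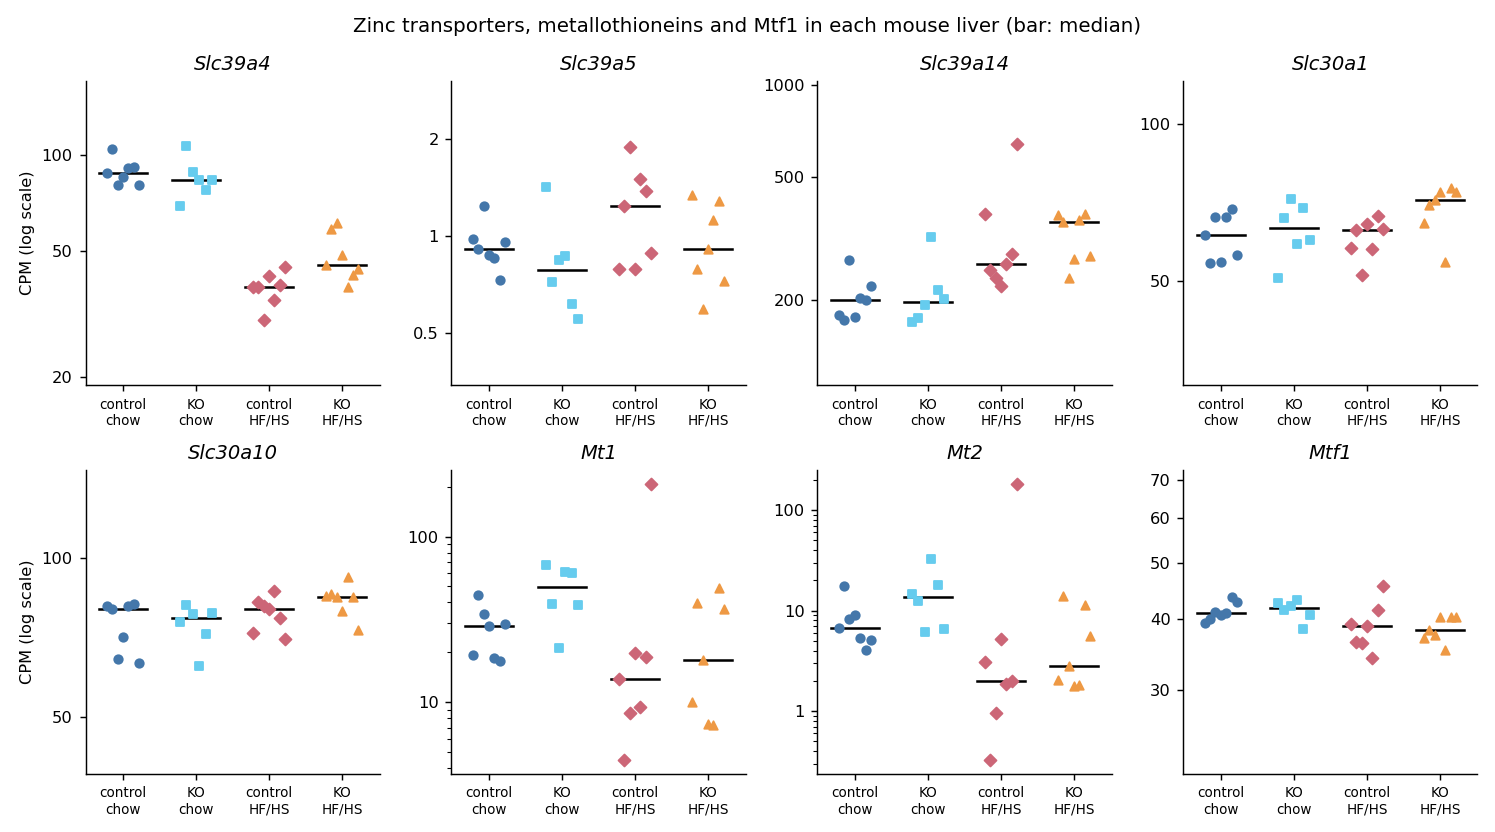
Level of each of the 8 genes in each liver, in CPM on a log scale, by genotype and diet, with 1 point per mouse and a bar at the group median. *Slc39a4* separates the diets in both genotypes, and a single control on HF/HS stands at 209.1 CPM for *Mt1* and 183.7 CPM for *Mt2*, above every other liver.

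The importers were compared first between diets within each genotype. *Slc39a4* was called lower on HF/HS in both genotypes. *Slc39a14* was called higher in HGFAC-KO mice, and its fitted difference in controls was also above 0 but was not called. *Slc39a5* did not pass the threshold in either genotype. In controls 1 of the 8 genes was called by edgeR's quasi-likelihood test at an adjusted p of 0.05, against 10.5% of the 13525 genes tested, and in HGFAC-KO mice 2 of 8 were called, against 5.89% of 13613.

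*Slc39a4* encodes ZIP4, best known as the importer of dietary zinc in the intestine, and lies at chr15:76612383-76617384 on the minus strand (GRCm38). In controls on chow it ranged from 80.7 to 104.6 CPM with a median of 87.6, and in controls on HF/HS from 30.3 to 44.6 CPM with a median of 38.6. In HGFAC-KO mice it ranged from 69.2 to 106.6 CPM with a median of 83.3 on chow, and from 38.5 to 61.0 CPM with a median of 45.0 on HF/HS. Every mouse on HF/HS was therefore below every mouse on chow of the same genotype, in controls and in HGFAC-KO mice alike. The log2 fold change was -1.22 (SE 0.08, edgeR adjusted p = 5.78e-08) in controls and -0.82 (SE 0.12, edgeR adjusted p = 0.000821) in HGFAC-KO mice, so that mean levels on HF/HS were 43.1% and 56.9% of those on chow. In controls the call stood whichever mouse was left out, with adjusted p-values up to 4.9e-07, and in HGFAC-KO mice with adjusted p-values up to 0.0025.

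The levels of *Slc39a4* on HF/HS overlapped between genotypes. Of the 7 HGFAC-KO mice, 4 were above every control and 6 were above the control median of 38.6 CPM. The log2 fold change was 0.34 (SE 0.11, edgeR adjusted p = 0.411), and the difference between the diet effects of the genotypes was 0.40 (SE 0.14, edgeR adjusted p = 0.984), so neither passed over all genes. On chow the log2 fold change between genotypes was -0.06 (SE 0.09, edgeR adjusted p = 0.895). In the order of group means, controls on chow were followed by HGFAC-KO mice on chow, HGFAC-KO mice on HF/HS and controls on HF/HS, and of the neighbours in this order only the second and the third groups did not overlap.

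*Slc39a14* encodes ZIP14, which carries zinc, iron and manganese into hepatocytes, and lies at chr14:70303469-70351425 on the minus strand. It ranged from 172.3 to 269.5 CPM with a median of 199.5 in controls on chow, and from 168.8 to 318.9 CPM with a median of 196.9 in HGFAC-KO mice on chow. On HF/HS it ranged from 220.9 to 643.4 CPM with a median of 261.5 in controls, and from 234.4 to 380.2 CPM with a median of 359.1 in HGFAC-KO mice. All 7 mice on HF/HS of each genotype were above their own chow median, but the ranges of the diets overlapped in both genotypes.

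The log2 fold change of *Slc39a14* with HF/HS was 0.61 in HGFAC-KO mice (SE 0.15, edgeR adjusted p = 0.0315). In controls it was 0.68 (SE 0.22, edgeR adjusted p = 0.0646) with all mice. Without control 7 on HF/HS, at 643.4 CPM, it was 0.42 (SE 0.13) and the adjusted p was 0.0490. The call in HGFAC-KO mice also sat near the threshold, since it was lost in 9 of the 13 fits that left out 1 mouse (adjusted p up to 0.083), and the log2 fold change then stayed between 0.55 and 0.76. The genotypes did not differ beyond their spread, with a log2 fold change of 0.07 (SE 0.14, edgeR adjusted p = 0.933) on chow. On HF/HS it was -0.01 (SE 0.22, edgeR adjusted p = 0.998) with all mice and 0.25 (SE 0.14, edgeR adjusted p = 0.472) without control 7. The difference between the diet effects of the genotypes was -0.07 (SE 0.28, edgeR adjusted p = 0.99) with all mice. Without control 7 that difference was 0.19 (SE 0.21, edgeR adjusted p = 0.899).

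Some markers of other cells and of inflammation also differed between the diets. Of all genes tested, 5.89% were called in HGFAC-KO mice and 10.5% in controls, with or without control 7. In HGFAC-KO mice 4 of 6 Kupffer cell and leukocyte markers rose, namely *Clec4f*, a Kupffer cell lectin, with a log2 fold change of 0.65 (SE 0.11, edgeR adjusted p = 0.00372), *Cd68* at 0.51 (SE 0.09, edgeR adjusted p = 0.0029), *Adgre1* at 0.61 and *Ptprc* at 0.63. The endothelial scavenger receptor *Stab2* rose there too (0.42, SE 0.09, edgeR adjusted p = 0.0124), 1 of 5 endothelial markers. The summed level of the 6 ranged from 102.7 to 154.8 CPM in HGFAC-KO mice on chow and from 151.4 to 235.4 CPM on HF/HS, and in controls from 113.9 to 210.7 CPM and from 137.7 to 283.8 CPM, with none of the 6 at 0 throughout a group. The summed level of the 18 acute-phase genes ranged from 17180 to 23270 CPM in controls on chow, from 17210 to 38550 in controls on HF/HS, from 17900 to 30370 in knockouts on chow and from 18920 to 30150 in knockouts on HF/HS. The 3 fibrinogen chains *Fga*, *Fgb* and *Fgg* rose too, with log2 fold changes from 0.36 to 0.41, and were the only 3 of 18 acute-phase genes called in HGFAC-KO mice, where 9 of the 18 had a fitted value above 0 and 9 below. In controls *Fgb* was the only acute-phase gene called with all mice, at 0.40 (SE 0.12, edgeR adjusted p = 0.0473) and at 0.25 (SE 0.06, edgeR adjusted p = 0.0187) without control 7, and no Kupffer cell or leukocyte marker was called with or without that mouse. Without it, 9 of the 18 acute-phase genes had a fitted value above 0 and 9 below, and *Orm1*, *Orm2* and *Saa3* were called lower on HF/HS while *Slc39a14* rose. In controls the stellate cell gene *Lrat* was called lower (-0.60, SE 0.16, edgeR adjusted p = 0.0273), while the other 4 stellate cell markers had fitted values above 0 and were not called. The hepatocyte gene *Apoa1* was called higher (0.39, SE 0.05, edgeR adjusted p = 0.000292), while the other 3 hepatocyte markers had fitted values below 0 and were not called, and no marker of bile duct cells was called. Their part in the level of *Slc39a14* was not tested.

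*Slc39a14* also followed the acute-phase genes from mouse to mouse. Over the 27 livers on a log2 scale, Pearson's r between *Slc39a14* and the summed acute-phase level was 0.829 (Spearman's rho 0.692). It was 0.904 after each group was centred on its mean, 0.737 without control 7 on HF/HS, and 0.755 without the 2 mice farthest from the median of the sum. With the summed Kupffer cell and leukocyte markers r was 0.746 (rho 0.694), 0.636 centred and 0.659 without control 7. The HGFAC-KO mouse on chow with the highest *Slc39a14*, number 4 at 318.9 CPM, also had the highest acute-phase sum of its group, 30370 CPM against a median of 18910. Of 11834 genes ranked, the 8 members left out, the 3 most like *Slc39a14* over the 27 livers were *Fgg* (r = 0.941, 0.895 centred), which encodes the gamma chain of fibrinogen, *Steap4* (0.933, 0.923 centred), which encodes a metalloreductase, and *Fgb* (0.927, 0.864 centred). These values are descriptions over livers that share libraries and groups.

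**Figure D2:**
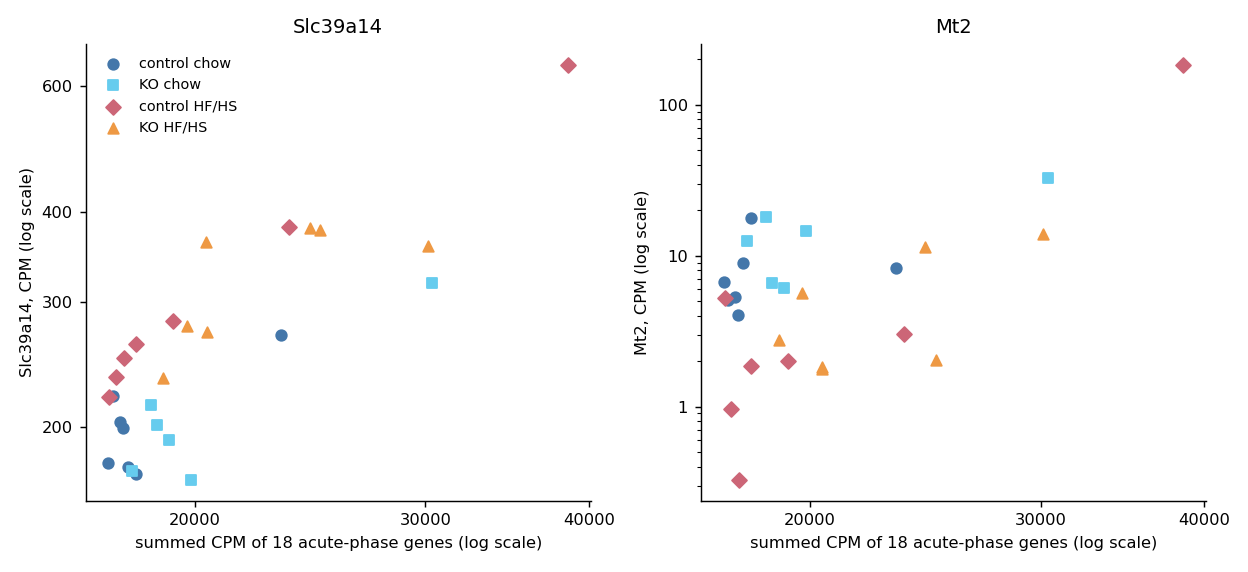
Level of *Slc39a14* (left) and *Mt2* (right) against the summed level of 18 acute-phase genes, both in CPM on log scales, with 1 point per liver and colours and shapes for the 4 groups. *Slc39a14* climbs with the sum (r = 0.829 over 27 livers), and for *Mt2* r is 0.56 (rho 0.272) with all livers and 0.326 without the control on HF/HS at the upper right.

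*Slc39a5* encodes ZIP5, an importer of the basolateral membrane of polarized cells, and lies at chr10:128395931-128401229 on the minus strand. It was near the floor of the table, with 25 to 65 counts per liver. Its medians were 0.91 CPM in controls on chow, 0.781 in HGFAC-KO mice on chow, 1.24 in controls on HF/HS and 0.91 in HGFAC-KO mice on HF/HS. All neighbouring groups overlapped. The log2 fold change with HF/HS was 0.37 (SE 0.20, edgeR adjusted p = 0.27) in controls, or 0.23 without control 3 on HF/HS. In HGFAC-KO mice it was 0.21 (SE 0.25, edgeR adjusted p = 0.65). Without HGFAC-KO mouse 1 on chow it was 0.43 there, and without HGFAC-KO mouse 1 on HF/HS 0.11. *Slc39a5* is abundant in pancreas, and the 8 acinar markers together had group medians of 0 to 0.0438 CPM, with the highest sum, 1.06 CPM, in control 2 on chow, whose *Slc39a5* was at 0.91 CPM. Their part in the level of *Slc39a5* was not tested.

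The exporters stayed within narrow ranges. *Slc30a1* encodes ZnT1, the zinc exporter of the plasma membrane, and lies at chr1:191906767-191913247 on the plus strand. Its range over all 27 livers was 50.6 to 75.5 CPM, with medians of 61.4 in controls on chow, 63.1 in HGFAC-KO mice on chow, 62.5 in controls on HF/HS and 71.6 in HGFAC-KO mice on HF/HS. On HF/HS 5 of 7 HGFAC-KO mice were above every control, with a log2 fold change of 0.19 (SE 0.07, edgeR adjusted p = 0.448), which did not pass over all genes. With diet the log2 fold change was -0.02 (SE 0.07, edgeR adjusted p = 0.919) in controls and 0.14 (SE 0.09, edgeR adjusted p = 0.375) in HGFAC-KO mice.

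*Slc30a10* encodes ZnT10, which exports manganese, and lies at chr1:185454848-185468762 on the plus strand. It ranged from 62.5 to 92.0 CPM, with group medians of 80.1 in controls on chow, 77.0 in HGFAC-KO mice on chow, 80.1 in controls on HF/HS and 84.5 in HGFAC-KO mice on HF/HS. The log2 fold change with HF/HS was 0.07 (SE 0.07, edgeR adjusted p = 0.589) in controls and 0.16 (SE 0.07, edgeR adjusted p = 0.186) in HGFAC-KO mice. Between genotypes it was 0.01 (SE 0.08, edgeR adjusted p = 0.992) on chow and 0.09 (SE 0.06, edgeR adjusted p = 0.653) on HF/HS. For both exporters all groups that neighbour each other in level overlapped.

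*Mt1* and *Mt2* lie next to each other at chr8:94179082-94180327 and chr8:94172664-94173568, both on the plus strand. *Mt1* ranged from 17.6 to 44.4 CPM with a median of 28.8 in controls on chow, and from 21.1 to 67.4 CPM with a median of 49.8 in HGFAC-KO mice on chow. In controls on HF/HS the 7 values were 13.7, 4.47, 8.55, 19.7, 9.27, 18.8 and 209.1 CPM, and knockouts on HF/HS lay between 7.29 and 48.5 CPM with a median of 17.99. Outside control 7, then, *Mt1* on HF/HS was mostly below its level on chow in both genotypes, and control 7 was above every other liver.

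*Mt2* had the same shape on a wider scale. It ranged from 4.06 to 17.7 CPM with a median of 6.71 in controls on chow, and from 6.06 to 32.7 CPM with a median of 13.6 in HGFAC-KO mice on chow. In controls on HF/HS the values were 3.05, 0.326, 0.963, 5.25, 1.86, 2.01 and 183.7 CPM, and knockouts on HF/HS lay between 1.78 and 13.8 CPM with a median of 2.78. Of the controls on HF/HS 5 of 7 were below every control on chow, as were 5 of 7 HGFAC-KO mice on HF/HS against HGFAC-KO mice on chow.

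With all mice, neither metallothionein passed edgeR's test in any comparison, and in these fits the direction of the diet difference in controls changed when control 7 was left out. In the same comparison with all mice entered, DESeq2 gave log2 fold changes of -1.01 for *Mt1* (DESeq2 adjusted p = 0.0266) and -1.60 for *Mt2* (DESeq2 adjusted p = 0.0205). DESeq2 was run with default settings, which can replace a count far from the rest of its group. Which counts were replaced was not recorded, so these DESeq2 values may not use the counts of control 7. Limma voom gave -0.64 and -1.16, which did not pass. In control 7 *Mt1* was 16.8 times and *Mt2* 81.9 times the mean of the other 6. With it, edgeR's log2 fold change with HF/HS in controls was 0.56 (SE 0.78, edgeR adjusted p = 0.71) for *Mt1* and 1.81 (SE 1.23, edgeR adjusted p = 0.394) for *Mt2*. Without it, the same values were -1.15 (SE 0.34, edgeR adjusted p = 0.0504) and -1.85 (SE 0.51, edgeR adjusted p = 0.0394), so that *Mt2* then passed, *Mt1* did not, and 3 of the 8 genes were called, where 10.5% of 13592 genes tested were. In the knockouts it was -1.01 (SE 0.48, edgeR adjusted p = 0.236) for *Mt1* and -1.42 (SE 0.58, edgeR adjusted p = 0.165) for *Mt2*.

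**Figure D3:**
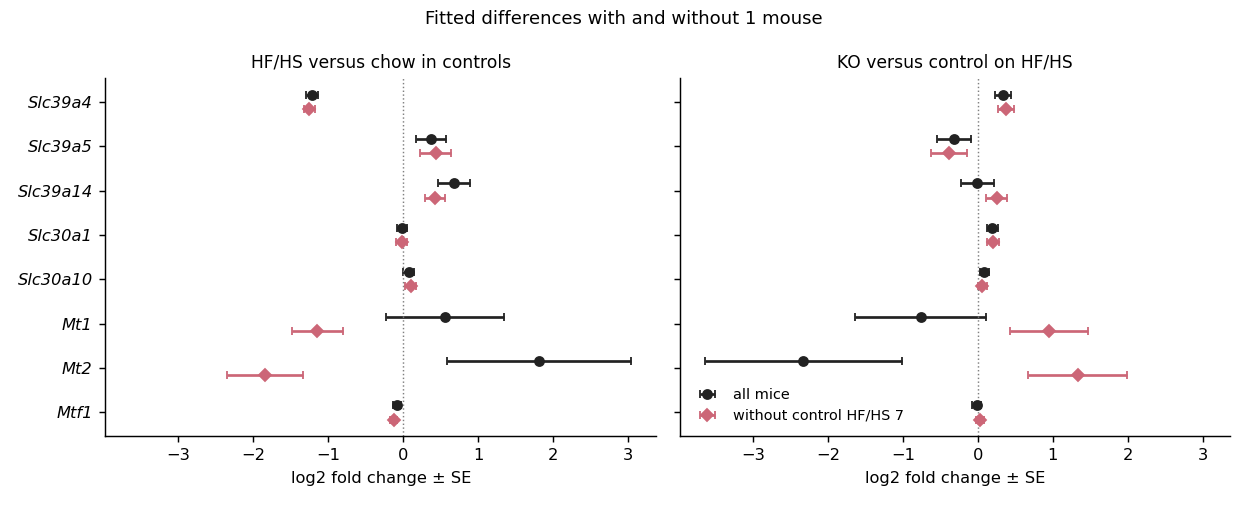
Log2 fold change with its standard error for the 8 genes in the 2 comparisons that include controls on HF/HS, with all mice (circles) and without control 7 on HF/HS (diamonds). *Mt1* and *Mt2* change side in both comparisons, from 1.81 to -1.85 for *Mt2* with diet in controls, and *Slc39a4* stays in place.

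The genotypes were compared within each diet. On chow 5 of 6 HGFAC-KO mice were above the control median of *Mt1* and 4 of 6 above that of *Mt2*, with log2 fold changes of 0.81 (SE 0.28) and 0.92 (SE 0.43). Over all genes these did not pass, each with an edgeR adjusted p of 0.801. For *Mt2* the value was 0.54 without HGFAC-KO mouse 4 on chow, at 32.7 CPM, and 1.24 without control 2 on chow, at 17.7 CPM. On HF/HS the log2 fold change between genotypes was -0.76 (SE 0.87, edgeR adjusted p = 0.823) for *Mt1* and -2.33 (SE 1.31, edgeR adjusted p = 0.595) for *Mt2*, and without control 7 it was 0.95 (SE 0.52, edgeR adjusted p = 0.472) and 1.33 (SE 0.66, edgeR adjusted p = 0.425). The difference between the diet effects of the genotypes was -1.57 (SE 0.96) for *Mt1* and -3.24 (SE 1.42) for *Mt2*, both with an edgeR adjusted p of 0.984. Without control 7 it was 0.14 (SE 0.61) and 0.41 (SE 0.80).

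None of the 8 genes passed between genotypes on chow, on HF/HS or in the interaction, where edgeR called 0.00737%, 0.0148% and 0% of all genes tested. At an unadjusted p under 0.05 the members were *Mt1* on chow, *Slc39a4* and *Slc30a1* on HF/HS, and *Slc39a4* and *Mt2* in the interaction, at a level that 5.98%, 9.64% and 3.63% of all genes reached. Limma voom called none of the 8 in these 3 comparisons, and DESeq2 called none on HF/HS or in the interaction. On chow DESeq2 called none of the 3 members to which it gave an adjusted p, and it gave none for the other 5, *Mt1* and *Mt2* among them.

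**Figure D4:**
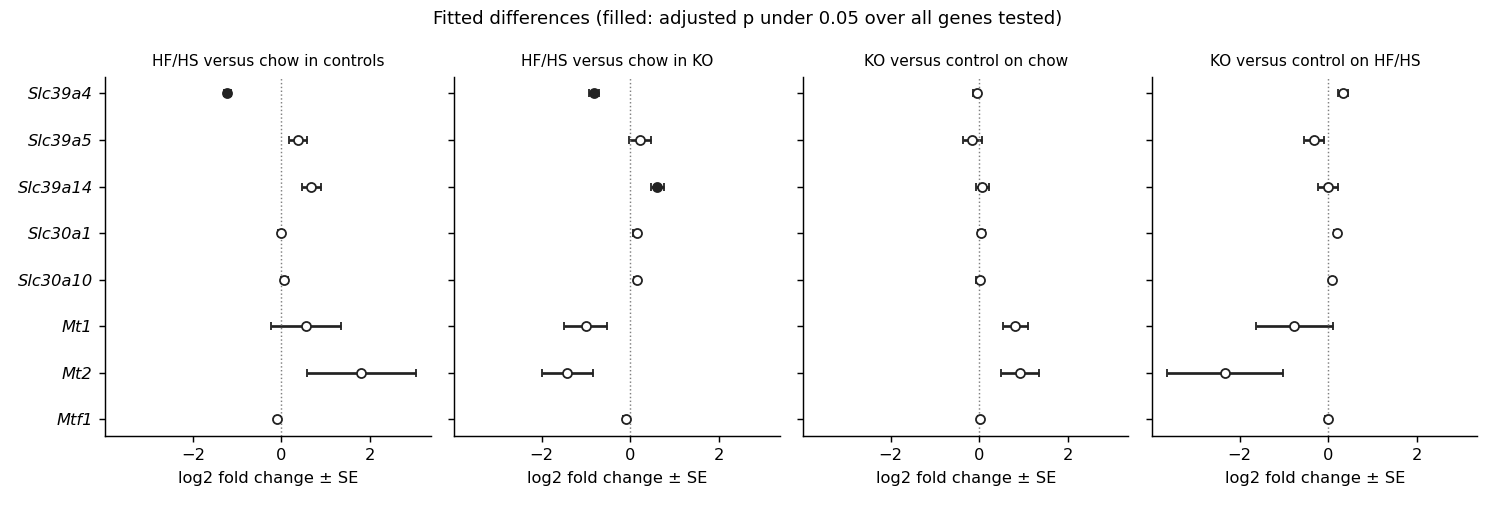
Log2 fold change with its standard error for the 8 genes in the 4 comparisons of diet and genotype, each fitted on its 2 groups, with filled points at an adjusted p under 0.05 over all genes tested. *Slc39a4* is filled on the left in both diet comparisons, at -1.22 and -0.82, *Slc39a14* is filled in HGFAC-KO mice at 0.61, and no point is filled between genotypes.

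The 2 metallothioneins moved together across livers. On a log2 scale Pearson's r was 0.952 over the 27 livers (Spearman's rho 0.947), 0.943 after centring each group, and 0.872 after centring and without controls 7 and 2 on HF/HS, the 2 livers farthest from the median. Per kilobase of exon the ratio of *Mt1* to *Mt2* had medians of 1.63 in controls on chow, 1.61 in HGFAC-KO mice on chow, 2.35 in controls on HF/HS and 2.0 in HGFAC-KO mice on HF/HS. It ranged from 0.537 in control 7 on HF/HS to 6.46 within the controls on HF/HS. The 2 genes are close paralogs, and how reads that match both were counted is not given in the sources used here.

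**Figure D5:**
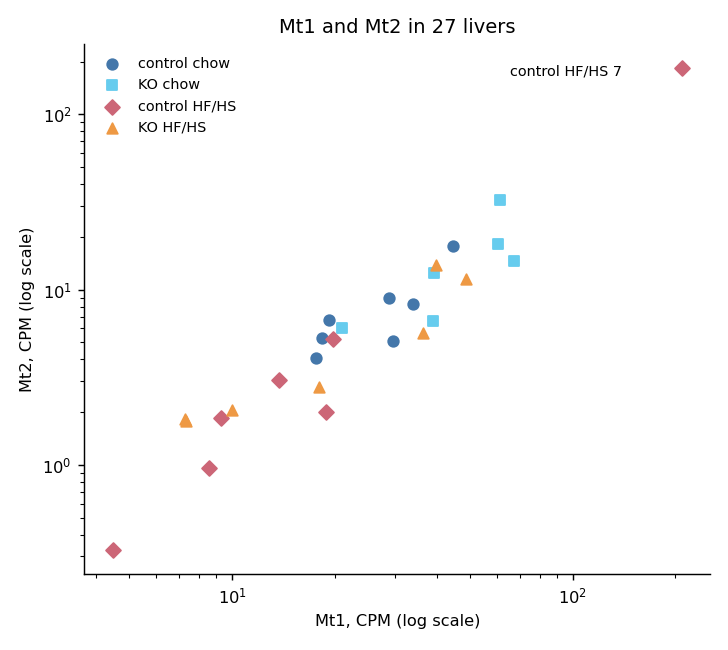
Level of *Mt2* against *Mt1* in each of 27 livers, in CPM on log scales, with colours and shapes for the 4 groups. The livers lie along 1 diagonal (r = 0.952), with most HF/HS livers at the lower left and control 7 on HF/HS at the upper right.

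Other genes were also high in control 7 on HF/HS. *Saa1*, an acute-phase apolipoprotein, was at 1240 CPM there and between 16.2 and 126.6 CPM in the other 6 controls on HF/HS, and *Lcn2*, an iron-siderophore carrier of inflamed liver, was at 91.8 CPM against 1.92 to 8.87. Of 10 genes known to respond to glucocorticoids, 5 were above all other controls on HF/HS, among them *Zbtb16* at 93.2 CPM against 7.04 to 29.1 and *Fkbp5* at 65.97 CPM against 21.2 to 43.0. The rest, *Tsc22d3*, *Sgk1*, *Dusp1*, *Klf9* and *Nr3c1*, lay within the range of those controls. Also above all other controls on HF/HS were 4 of 10 other ZIP genes, 3 of 6 other ZnT genes, 1 of 9 copper genes and 1 of 5 endothelial markers. The share over all genes was not computed. Over all livers, r between *Mt2* and the acute-phase sum was 0.56 (rho 0.272), 0.757 centred, 0.326 without control 7 and 0.167 without the 2 farthest mice. For *Mt1* it was 0.49 (rho 0.303), 0.669 centred, 0.257 without control 7 and 0.134 without the 2 farthest. The values without those livers were not centred, and the centred r was not computed without them. With the glucocorticoid sum r was 0.496 for *Mt2* (rho 0.556, 0.416 centred, 0.444 without control 7) and 0.447 for *Mt1* (rho 0.445, 0.346 centred, 0.383 without control 7). When control 7 was left out, the acute-phase genes *Orm2*, *Orm1* and *Saa3* fell with HF/HS in controls, as *Mt2* did, with log2 fold changes of -1.49 (SE 0.28, edgeR adjusted p = 0.00462), -0.60 (SE 0.14, edgeR adjusted p = 0.0108) and -1.14 (SE 0.22, edgeR adjusted p = 0.00364), and so did *Fkbp5*, a glucocorticoid-induced chaperone partner, at -0.67 (SE 0.20, edgeR adjusted p = 0.0496). Calls within these lists went both ways, in a fit that called 10.5% of the 13592 genes tested. Of the 18 acute-phase genes 3 were called lower and 1, *Fgb*, higher. Of the 10 glucocorticoid-response genes 2 were called lower and 1, *Klf9*, higher (0.56, SE 0.12, edgeR adjusted p = 0.00867). The lists were not tested as a whole. The part of any of these in the metallothionein levels was not tested. Outside the 8 members, the gene most like *Mt2* of the 11834 ranked was *Orm2* (r = 0.855, 0.854 centred, 0.825 without control 7), which encodes an acute-phase glycoprotein, followed by *Skiv2l* (0.814) and *Cldn14* (0.791). For *Mt1* they were *Skiv2l* (0.797), *Plec* (0.778) and *Orm2* (0.758).

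*Mtf1*, the gene of the zinc sensor itself, lies at chr4:124802104-124849800 on the plus strand and varied least. It ranged from 34.2 to 45.7 CPM over all livers, with medians of 40.9 in controls on chow, 41.7 in HGFAC-KO mice on chow, 38.9 in controls on HF/HS and 38.2 in HGFAC-KO mice on HF/HS. The highest liver was again control 7 on HF/HS. The log2 fold change with HF/HS was -0.09 (SE 0.06, edgeR adjusted p = 0.356) in controls and -0.11 (SE 0.05, edgeR adjusted p = 0.183) in HGFAC-KO mice. Its r with *Mt1* was 0.69 over all livers and 0.37 after centring and without controls 7 and 2 on HF/HS. Outside the members, the genes most like *Mtf1* were *Bag3* (r = 0.822, 0.863 centred), a co-chaperone of the heat-shock response, *Ube2g2* (0.81) and *Dlgap4* (0.807).

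Among genes outside the members, the pattern of *Slc39a4* was shared most closely by *Snhg11* (r = 0.929), *Cyp3a59* (0.922) and *Ugt1a9* (0.92), the last pair encoding enzymes of drug metabolism, but within groups these fell to 0.526, 0.151 and 0.304. For *Slc39a5* the nearest genes were *Tspan7*, *Chrac1* and *Fcgrt* (r from 0.742 to 0.755), for *Slc30a1* they were *1700034H15Rik* (0.812) and *Eif3a* (0.79), and for *Slc30a10* they were *Gm2061*, *Leap2* and *Cnp* (0.731 to 0.801).

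The remaining genes of both transporter families were read in the same fits. Of the 11 other ZIP genes 10 were abundant enough to test, and 1 was called in controls with diet, where 10.5% of all genes tested were. This was *Slc39a6*, which encodes a plasma membrane importer, at 4.36 ± 0.42 CPM (SD, n = 7) on chow and 3.23 ± 0.60 (n = 7) on HF/HS, a log2 fold change of -0.43 (SE 0.11, edgeR adjusted p = 0.0213). In the knockouts it had a log2 fold change of -0.02 (SE 0.14, edgeR adjusted p = 0.958), and the difference between the diet effects was 0.42 (SE 0.18, edgeR adjusted p = 0.984). No other ZIP gene was called in any comparison, and the median log2 fold change of the 10 was -0.05 in controls and -0.06 in HGFAC-KO mice, against 0.004 over all genes tested in each. Of the 8 other ZnT genes 6 were tested and none was called, with medians of 0.04 and 0.09. *Slc30a5*, which moves zinc into the secretory pathway, was at 133.7 CPM in control 7 on HF/HS and between 53.9 and 91.7 CPM in the other 6. *Slc39a12*, *Slc30a2* and *Slc30a8* had at most 11 counts in any liver, and *Mt3* and *Mt4*, the metallothioneins of brain and squamous epithelium, summed to at most 0.0488 CPM.

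Genes for copper, which metallothioneins also bind, were compared in the same fits. Of 9 copper genes 1 was called with diet in controls, against the same 10.5% of all genes, the copper chaperone *Ccs*, with a log2 fold change of 0.26 (SE 0.05, edgeR adjusted p = 0.00443). None of the 9 was called in HGFAC-KO mice, where 5.89% of all genes tested were. Of the 10 glucocorticoid-response genes, *Klf9* rose (0.56, SE 0.11, edgeR adjusted p = 0.00531) and *Tat*, which encodes tyrosine aminotransferase, fell (-0.51, SE 0.16, edgeR adjusted p = 0.048) in controls on HF/HS. In HGFAC-KO mice *Tat* alone was called, at -0.75 (SE 0.16, edgeR adjusted p = 0.0121). No gene of any list was called between genotypes or in the interaction. Without control 7 on HF/HS, *Slc39a6*, *Ccs*, *Klf9* and *Tat* were still called in controls in the same directions, and no list gene was called between genotypes on HF/HS or in the interaction.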

How the data were processed

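Liver RNA of 27 mice in 4 groups was sequenced by the authors from a stranded mRNA kit as 50 bp paired-end reads, which they aligned to GRCm38 with HISAT2 and summarised as raw counts per gene with featureCounts 1.6.3. The annotation and strand setting of the counting are not given in the sources used here. The deposited counts, 27179 rows, were used as they stood. The 3886 rows without a gene name (4.13% to 12.1% of a library) were left out, and rows of the same symbol (89 symbols) were summed. Genes were kept by edgeR's filter (10 counts, total of 15), scaled by TMM and tested with edgeR 4.0.16 (quasi-likelihood, robust, R 4.3.3), with Benjamini-Hochberg adjustment over all genes tested and a threshold of 0.05. Diet and genotype comparisons were fitted on their 2 groups and the interaction on all 4. Levels are CPM with TMM factors, and the lengths behind CPM per kb are exon unions of GENCODE M21.

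The members and the gene lists were chosen with earlier results of these data known. Genes named are the 8 members, list genes past the threshold (up to 5 a list and comparison), and the 3 genes outside the 8 with the highest r to each member on log2 CPM among genes of a mean of at least 1 CPM. *Slc30a5* and the genes given for control 7 on HF/HS were named after their values were seen. A list of manganese-handling genes and 1 gene similar to *Slc30a1* are not reported here. On simulated counts for 13447 genes of the diet comparison in controls, with 200 changed at a log2 fold change of 1, edgeR recovered 177 and called 8 others, DESeq2 1.42.0 recovered 183 with 26 others and limma 3.58.1 (voom) 179 with 9 others. The simulated counts were drawn with a fitted spread per gene, and no library was set apart as control 7 on HF/HS was. The alternatives were DESeq2, limma voom, upper-quartile scaling, no filter, 10 counts in every library, a replicate block, 1 joint fit of the 4 groups, and fits that each omitted 1 mouse. The labels do not say that replicates came from separate litters or days, and p-values measure the spread between these mice.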

Additional observations from a re-analysis of the deposited data

Results flagged for a closer look

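Within-group gaps were examined for the 8 genes in the 4 groups, 32 sets of values, and 6 held a liver far from the rest of its group by Dixon's criterion. Chance marks about 1 in 20 such sets only where the values are normally distributed and the sets independent. The CPM values were not checked for this, and *Mt1* and *Mt2* moved together. No explanation was tested.

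The control numbered 7 on HF/HS accounted for 3 of the 6. It had 643.4 CPM of *Slc39a14* against 220.9 to 381.4 in the other 6, 209.1 CPM of *Mt1* against 4.47 to 19.7, and 183.7 CPM of *Mt2* against 0.326 to 5.25. The HGFAC-KO mouse on chow numbered 4 had 318.9 CPM of *Slc39a14*, with the other 5 between 168.8 and 215.1. The control on chow numbered 2 had 17.68 CPM of *Mt2*, with the other 6 between 4.06 and 8.95. The HGFAC-KO mouse on chow numbered 1 had 1.416 CPM of *Slc39a5*, with the other 5 between 0.55 and 0.867, at 25 to 58 counts per liver.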

How the results depend on the processing

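The fall of *Slc39a4* with HF/HS kept its call in both genotypes under every alternative run. The number of members called with diet in controls was 1, but 4 with DESeq2 (1939 calls over all genes), 2 in a fit of all mice (1418 calls) and from 1 to 3 when 1 mouse was left out (976 to 1780 calls). In HGFAC-KO mice it was 2, but 1 with the replicate block (602 calls) and in the fit of all mice (1163 calls), and from 1 to 2 when 1 mouse was left out. The *Slc39a14* call there was lost with the block (edgeR adjusted p = 0.0768) and in the fit of all mice (edgeR adjusted p = 0.0646). In controls *Slc39a14* passed with DESeq2 (adjusted p = 0.00989) and in the fit of all mice (edgeR adjusted p = 0.0271).

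Over all genes, calls with diet in controls numbered 1424 and 774 with the replicate block, and in HGFAC-KO mice 802, 1401 with DESeq2 and 467 (without HGFAC-KO mouse 2 on chow) to 950 with 1 mouse left out. Between genotypes on chow there was 1 call and 13 with DESeq2. On HF/HS there were 2, 55 with DESeq2, 1 in the fit of all mice, and 2 to 11 with 1 mouse left out, where 5 were called without control 7 and 11 without HGFAC-KO mouse 5.

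Equal replicate numbers did not mark paired mice, with correlations of their deviations from -0.252 to 0.368, and a block of them is given only as an alternative. The diet difference of *Mt1* in controls became -1.01 with DESeq2 (adjusted p = 0.0266), -0.64 with limma voom and -0.67 with the replicate block. That of *Mt2* became -1.60 with DESeq2 (adjusted p = 0.0205), -1.16 with voom and -1.24 with the block. Between genotypes on HF/HS, *Mt2* became 1.19 with DESeq2, 0.32 with voom and 0.22 with the block, *Mt1* became 0.11 with voom and 0.0793 with the block, and *Slc39a14* became 0.0739 with voom, 0.016 with upper-quartile scaling and 0.0817 with the block. On chow *Slc30a10* became -0.031 with the block. In the interaction *Mt2* became 0.0688 with DESeq2 and *Slc39a14* 0.0292 with voom. With DESeq2 *Mt1* stayed at -0.76 between genotypes on HF/HS and at -1.58 in the interaction. DESeq2's default settings can replace a count far from the rest of its group, and which counts were replaced was not recorded. The cause of these changes was not tested.

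With 1 mouse left out, signs changed within these log2 ranges. With diet in controls, *Slc30a1* ran from -0.0435 to 0.0188, *Mt1* from -1.15 to 0.77 and *Mt2* from -1.85 to 2.13. Between genotypes on chow, *Slc39a14* ran from -0.0854 to 0.15, *Slc30a10* from -0.031 to 0.0536 and *Mtf1* from -0.000598 to 0.0336. On HF/HS, *Slc39a14* ran from -0.0773 to 0.25, *Mt1* from -1.03 to 0.95, *Mt2* from -2.74 to 1.33 and *Mtf1* from -0.0436 to 0.027. In the interaction, *Slc39a5* ran from -0.25 to 0.0621, *Slc39a14* from -0.15 to 0.19, *Mt1* from -1.84 to 0.14, *Mt2* from -3.65 to 0.41 and *Mtf1* from -0.0622 to 0.0202. For *Mt1* and *Mt2* the change of sign in each range came from leaving out control 7 on HF/HS.

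At 25 to 65 counts per liver, *Slc39a5* had standard errors of 0.20 to 0.25 in the 4 comparisons of 2 groups, and differences of that size were not detectable.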
